A study of Mus musculus with 6 samples.

Results

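The genes examined here are the D cyclins Ccnd1, Ccnd2 and Ccnd3, their kinases Cdk4 and Cdk6, and the CDK inhibitors Cdkn1a, Cdkn1b, Cdkn1c, Cdkn2c and Cdkn2d. They were taken by symbol from a deposited table of raw read counts, which held all 10 of them among 37043 gene symbols. The counts came from bulk RNA-seq of bone marrow-derived basophils (BMBAs), which are basophils grown in culture from bone marrow of wild-type C57BL/6J mice for 7 days at 0.3 ng/mL of a cytokine, IL-3 per the methods of the study, and then enriched with beads against CD49b. Each of 3 cultures in a group then received PBS or 10 ng/mL IL-3, and RNA was taken 6 h later. Both groups had thus been raised in IL-3, and the sources do not say if any of it remained when PBS was added. Nothing says that the cultures came from separate mice, so the p-values measure the spread between cultures, which may be technical in part.

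Cells decide in the G1 phase whether to copy their DNA again. D cyclins are made in response to growth signals and bind CDK4 or CDK6, and the complexes phosphorylate the retinoblastoma protein, which then releases E2F factors that switch on genes of DNA synthesis. The INK4 inhibitors (p15, p16, p18 and p19) bind CDK4 and CDK6 themselves, whereas the CIP/KIP inhibitors (p21, p27 and p57) block CDK2 complexes and can also help cyclin D and CDK4 to assemble. IL-3 is a growth and survival factor of basophils, and D cyclins are known targets of its signalling in blood cells.

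IL-3 raised the transcripts of 2 D cyclins, of Cdk6 and of the inhibitor p21, and lowered those of the inhibitors p27 and p18. Of the 10 genes, 9 were expressed highly enough to be tested, and 7 were called, with 4 higher in IL-3 and 3 lower (edgeR quasi-likelihood F test, Benjamini-Hochberg adjusted p under 0.05). Of all 16675 genes tested, 38.2% were called, 18% higher and 20.2% lower. The rises of Ccnd2, Cdkn1a, Cdk6 and Ccnd3 were between 2.64-fold and 5.43-fold. Among the falls only that of Cdkn2c exceeded 2-fold, and 9.58% of all genes tested were both called and changed at least 2-fold. In 8 of the 9 tested genes the IL-3 and PBS libraries did not overlap, which was also the case for 48.2% of all genes tested. All IL-3 libraries were above all PBS libraries for 4 members (23.8% of all genes) and below them for 4 (24.4% of all genes). Levels are given as CPM, that is read counts scaled to a common library size after TMM normalisation, with mean ± SD over 3 cultures.

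**Figure D1:**
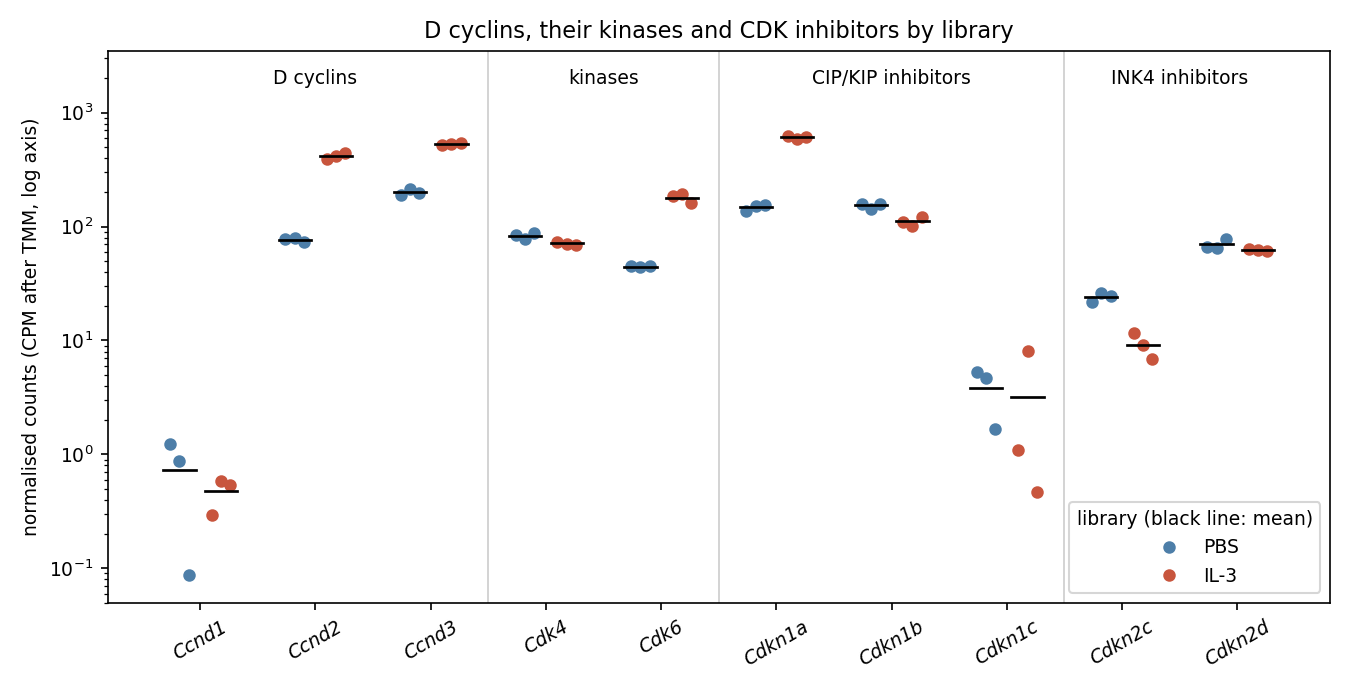
Normalised counts (CPM after TMM, log axis) of the 10 genes in each of the 6 libraries, with PBS in blue, IL-3 in red and the mean of each group as a black line. Ccnd2, Ccnd3, Cdk6 and Cdkn1a are higher in all IL-3 libraries, Cdkn1b and Cdkn2c are lower, and Cdkn1c and Ccnd1 have few counts and overlapping groups.

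The libraries held 10537540 to 13999287 counts. For a gene with 0 counts the data allow up to 3, which covers counting error only. Scaled by library totals without TMM, unlike the CPM levels given for genes, 3 counts equal 0.214 to 0.285 CPM. Across genes, Pearson's r of log2 CPM was 0.985 to 0.988 within a group and 0.952 to 0.957 between groups, and no library stood apart. Cish, a feedback gene of IL-3 signalling, went from 81.2 ± 6.61 to 1311 ± 53.5 CPM, so the labels and the response to IL-3 went together. The basophil protease Mcpt8 was at 3066 ± 171 CPM in PBS against 5895 ± 178 CPM in IL-3. Other basophil markers went otherwise. Prss34 was at 5615 ± 323 and 5661 ± 183 CPM and was not called (edgeR adjusted p 0.86). Fcer1a fell from 289 ± 16 to 204 ± 3.32 CPM and Cebpa from 264 ± 8.65 to 162 ± 18.2 CPM, while 6 of the 9 basophil markers rose. Lyz2, a marker of monocytes and macrophages, was at 10456 ± 432 CPM in PBS.

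Start-site sequences of 7 of the 10 genes were found in RefSeq (GRCm38.p6), in 10 windows of 300 bases that run from 250 bases before the start to 50 after it. Ccnd1, Ccnd2 and Cdkn1c had no window in the set of RefSeq windows used here. This is a gap of that set, and whether RefSeq itself lists their start sites was not looked up. The windows were searched on both strands for the letters of a STAT site (TTCNNNGAA), a FOXO site (GTAAACA), an E2F site (TTTCCCGC or TTTGGCGC) and the E-box bound by MYC and MAX (CACGTG). No match overlapped one of another motif. The 4 windows with a match are shown because factors of these families respond to IL-3, with the matches in capitals. They stand 5′ to 3′ on the strand of the gene, which is the plus strand for Ccnd3 (chr17:47504801-47505100), Cdk4 (chr10:127063285-127063584) and Cdk6 (chr5:3343643-3343942) and the minus strand for Cdkn2c (chr4:109665323-109665622).
Ccnd3: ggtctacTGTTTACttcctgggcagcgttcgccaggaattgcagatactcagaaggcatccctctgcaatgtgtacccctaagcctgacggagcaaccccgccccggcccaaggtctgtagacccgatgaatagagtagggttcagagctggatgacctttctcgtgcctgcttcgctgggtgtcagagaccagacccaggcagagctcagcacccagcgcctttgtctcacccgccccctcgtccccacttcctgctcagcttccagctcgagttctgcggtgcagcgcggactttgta
Cdk4: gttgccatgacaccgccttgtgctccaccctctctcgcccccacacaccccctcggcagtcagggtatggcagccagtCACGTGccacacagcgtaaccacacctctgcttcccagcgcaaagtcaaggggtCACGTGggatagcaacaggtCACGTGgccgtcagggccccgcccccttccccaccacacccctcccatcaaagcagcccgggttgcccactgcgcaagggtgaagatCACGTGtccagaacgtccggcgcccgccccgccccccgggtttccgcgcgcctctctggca
Cdk6: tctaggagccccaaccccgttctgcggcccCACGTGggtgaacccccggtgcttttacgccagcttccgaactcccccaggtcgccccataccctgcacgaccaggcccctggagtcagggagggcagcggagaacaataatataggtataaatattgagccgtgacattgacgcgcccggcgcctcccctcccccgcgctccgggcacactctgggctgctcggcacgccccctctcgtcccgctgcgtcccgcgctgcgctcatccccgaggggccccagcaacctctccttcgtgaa
Cdkn2c: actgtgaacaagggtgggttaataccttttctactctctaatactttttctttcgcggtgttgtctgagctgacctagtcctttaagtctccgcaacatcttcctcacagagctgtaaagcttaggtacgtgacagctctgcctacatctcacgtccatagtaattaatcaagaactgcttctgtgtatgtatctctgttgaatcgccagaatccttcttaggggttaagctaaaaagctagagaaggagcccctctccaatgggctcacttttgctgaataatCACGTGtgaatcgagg
The Cdk4 window held 4 E-boxes, and those of Cdk6 and Cdkn2c held 1 each, while the Ccnd3 window held 1 FOXO match. The Cdkn2c window belongs to the more downstream of its 2 start sites and the Ccnd3 window to the more upstream of 2, and the other window of either gene held no match. No STAT or E2F match lay in any of the 10 windows. Over all 32851 windows in the RefSeq table, an E-box was present in 7.15%, the STAT letters in 8.3%, the FOXO letters in 3.65% and the E2F letters in 1.56%. A match describes letters only and does not show that a factor binds there.

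Cyclin D2 showed the largest rise of the 10 genes. Ccnd2 (ENSMUSG00000000184, chromosome 6, 127125162 to 127152193, minus strand, GRCm38) was measured at 77.7, 79.9 and 73.5 CPM in the PBS libraries and at 392, 420 and 442 CPM in the IL-3 libraries. Every IL-3 library was thus far above every PBS library. The log2 fold change was 2.44 (SE 0.062, 95% interval 2.31 to 2.57), or 5.43-fold, with an edgeR adjusted p of 4.7e-14. By the size of its log2 fold change Ccnd2 ranked 123 from the top among the 16675 genes tested. The antisense genes that overlap its exons, Gm43126 and 9330179D12Rik, had at most 9 counts in any library.

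Cyclin D3 was the most abundant D cyclin and also rose. Ccnd3 (ENSMUSG00000034165, chromosome 17, 47505051 to 47599691, plus strand) was at 191, 213 and 199 CPM in PBS and at 521, 531 and 543 CPM in IL-3. The groups lay far apart beside a spread of 11.1 CPM (SD) in each. The log2 fold change of 1.40 (SE 0.054, adjusted p 6.97e-12 in edgeR) corresponded to 2.64-fold. Bysl, a ribosome biogenesis gene on the other strand that shares exonic sequence with Ccnd3, had 8.62 ± 0.640 CPM in PBS cultures and 22.6 ± 2.32 CPM after IL-3. The use of strand in counting is not stated, so reads of the exons that both genes share cannot be told apart, although Bysl had few reads beside Ccnd3.

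Cyclin D1 was close to the limit of detection. Ccnd1 (ENSMUSG00000070348, chromosome 7, 144929931 to 144939925, minus strand) had 15, 10 and 1 counts in PBS and 3, 7 and 7 counts in IL-3. The groups overlapped, and the gene did not pass the filter on low counts. Without that filter its log2 fold change was -0.59 with an adjusted p of 0.582 in edgeR. Without PBS replicate 3, the library with 1 count, it was at -1.11 (adjusted p 0.107), and without IL-3 replicate 1 it was at -0.39, with adjusted p from 0.107 to 0.72 over the alternatives that tested it. The data thus do not settle whether Ccnd1 differed between the groups. Of the 50-mers of its transcript, 21.6% also occur, on the other strand, in transcripts of other genes, chiefly LTO1, which had 271 to 378 counts per library.

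The D cyclin pool therefore consisted of D3 and D2. Per kilobase of the longest coding transcript, Ccnd3 made up 88.5% ± 0.648 of the summed D cyclin level in PBS and 79.2% ± 0.675 in IL-3. The share of Ccnd2 was 11.9%, 11.1% and 11% in the PBS libraries and 20.1%, 20.9% and 21.4% in the IL-3 libraries. Both groups were tight and did not overlap. The shares assume that reads cover the transcripts evenly, which was not checked. They also depend on the transcript length assumed, since with the median length of the annotated coding transcripts Ccnd2 took 25.5% in PBS and 41.3% in IL-3. The ratio of Ccnd2 to Ccnd3 reads within a library needs no scaling. Its size still carries the lengths of both transcripts, but its change between groups does not depend on the length assumed. This ratio was 0.406, 0.375 and 0.369 in PBS and 0.752, 0.791 and 0.815 in IL-3, a 2.05-fold difference of the means.

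The kinases of the D cyclins went in opposite directions. Cdk6 (ENSMUSG00000040274, chromosome 5, 3341485 to 3531008, plus strand) was at 44.7, 43.8 and 44.9 CPM in PBS and at 184, 193 and 161 CPM in IL-3. The PBS libraries were almost alike, and the lowest IL-3 library was far above them. The log2 fold change was 2.01 (SE 0.073, 95% interval 1.86 to 2.17), or 4.03-fold, with an edgeR adjusted p of 3.56e-12. Cdk4 (ENSMUSG00000006728, chromosome 10, 127063534 to 127067920, plus strand) was at 84.3, 77.5 and 87.1 CPM in PBS and at 73.7, 71.0 and 68.5 CPM in IL-3. The IL-3 libraries were lower without overlap, but the gap between the groups was small.

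The fall of Cdk4 was a log2 fold change of -0.23 (95% interval -0.37 to -0.08) with an edgeR adjusted p of 0.0135. This call was lost without PBS replicate 3 (adjusted p 0.0563) and without IL-3 replicate 3 (adjusted p 0.0581), and over all alternatives the adjusted p ranged from 0.000421 to 1. Cdk4 shares 17.0% of its 50-mers with other genes, chiefly Tspan31 on the other strand. Tspan31 had 56.8 ± 1.13 CPM in PBS cultures and 37.7 ± 2.10 CPM after IL-3 (log2 fold change -0.59), and its part in the Cdk4 counts was not tested. The ratio of Cdk6 to Cdk4 reads rose from 0.537 ± 0.0251 to 2.52 ± 0.186, without overlap between groups. Which kinase was more abundant in IL-3 depends on the length assumed and on how evenly reads cover the transcripts, which was not checked. With the longest coding transcripts, of 11525 bases for Cdk6 and 2053 bases for Cdk4, Cdk6 was at 15.5 ± 1.42 and Cdk4 at 34.6 ± 1.26 CPM per kilobase. With the median lengths of 697 and 1066 bases the order was reversed, at 257 ± 23.6 for Cdk6 and 66.6 ± 2.42 for Cdk4.

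Among the CIP/KIP inhibitors p21 rose and p27 fell. Cdkn1a (ENSMUSG00000023067, chromosome 17, 29090976 to 29100727, plus strand), which encodes p21, a target of p53 and of several cytokine signals, was at 138, 153 and 155 CPM in PBS and at 623, 593 and 611 CPM in IL-3. All IL-3 libraries were far above the PBS libraries. Its log2 fold change of 2.03 (SE 0.057, 95% interval 1.91 to 2.16) corresponded to 4.10-fold with an edgeR adjusted p of 1.39e-13. Cdkn1b (ENSMUSG00000003031, chromosome 6, 134920401 to 134925513, plus strand), which encodes p27, a brake that is high in resting cells, was at 158, 144 and 158 CPM in PBS and at 110, 102 and 121 CPM in IL-3. The groups did not overlap, and the change was much smaller than that of Cdkn1a. It amounted to a log2 fold change of -0.46 (SE 0.068, 95% interval -0.61 to -0.32) with an edgeR adjusted p of 5.23e-05. No 50-mer of Cdkn1b occurs in another gene, whereas 8.49% of those of Cdkn1a do (2.14% in the same orientation), chiefly in the antisense gene AC167363.2, whose counts were not analysed here.

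The balance of both inhibitors thus shifted within each library. There were 0.874, 1.06 and 0.981 reads of Cdkn1a per read of Cdkn1b in the PBS libraries and 5.67, 5.79 and 5.06 in the IL-3 libraries. Reads of both genes were near equal in PBS, and those of Cdkn1a prevailed in every IL-3 library, a 5.66-fold difference of the mean ratios.

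The third CIP/KIP gene had few and uneven counts. Cdkn1c (ENSMUSG00000037664, chromosome 7, 143458339 to 143461050, minus strand), an imprinted gene that encodes p57, had 64, 53 and 19 counts in PBS and 11, 97 and 6 counts in IL-3. IL-3 replicate 2 was the highest of all 6 libraries, while the other IL-3 libraries were the lowest. The gene was not called (log2 fold change -0.26, 95% interval -1.61 to 1.09, edgeR adjusted p 0.792). Without IL-3 replicate 2 it was called lower, at -2.36 with an adjusted p of 0.00244, whereas it was at 0.29 without IL-3 replicate 3, at 0.12 without IL-3 replicate 1 and at 0.033 without PBS replicate 1, so single libraries decided both its sign and its call. Of its 50-mers 24.9% occur in other genes, chiefly the antisense gene Gm44732, which had at most 1 count in a library. Over all alternatives its adjusted p ranged from 0.00244 to 1.

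**Figure D2:**
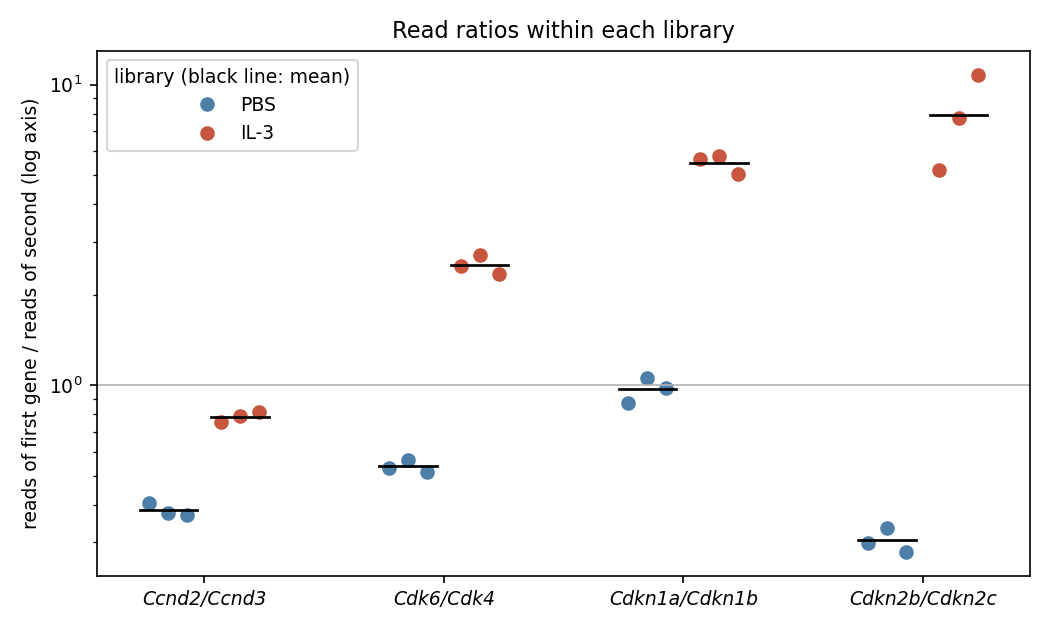
Reads of one gene divided by reads of another in the same library (log axis), with PBS in blue, IL-3 in red and group means as black lines. The ratios need no normalisation. All 4 are higher in IL-3 with no overlap, and the mean of Cdkn1a over Cdkn1b goes from 0.973 to 5.51.

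Of the INK4 inhibitors p18 fell. Cdkn2c (ENSMUSG00000028551, chromosome 4, 109660876 to 109667189, minus strand), which encodes p18, was at 21.6, 25.9 and 24.7 CPM in PBS and at 11.6, 9.08 and 6.83 CPM in IL-3. The IL-3 libraries differed among themselves but were all below the PBS libraries. The log2 fold change was -1.41 (SE 0.16, 95% interval -1.74 to -1.07), that is 2.65-fold lower in IL-3, with an edgeR adjusted p of 3.29e-06. Cdkn2d (ENSMUSG00000096472, chromosome 9, 21288410 to 21291407, minus strand), which encodes p19, was at 66.5, 65.1 and 78.2 CPM in PBS and at 63.1, 62.5 and 61.5 CPM in IL-3. The groups lay next to each other without overlap. Its log2 fold change of -0.17 had a 95% interval of -0.33 to 0.00 and was not called (edgeR adjusted p 0.0994). With library totals in place of TMM it was at -0.33 and was called (adjusted p 0.00404), a setting that shifted all genes by a median of -0.17. Its adjusted p over all alternatives ranged from 0.00404 to 1.

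The other INK4 genes, which lie outside the 10 members, went the opposite way to Cdkn2c. Cdkn2b, which encodes p15, was at 6.46, 8.68 and 6.87 CPM in PBS and at 60.0, 70.4 and 73.5 CPM in IL-3, a log2 fold change of 3.21 (95% interval 2.96 to 3.47, edgeR adjusted p 4.75e-12). Cdkn2a, whose locus encodes p16 and the unrelated ARF protein in different reading frames, was at 1.40 ± 0.305 CPM in PBS and at 7.25 ± 1.15 CPM in IL-3, with a log2 fold change of 2.37 (edgeR adjusted p 1.09e-06). Counts per symbol cannot separate p16 from ARF. There were 0.304 ± 0.0289 reads of Cdkn2b per read of Cdkn2c in PBS and 7.91 ± 2.79 in IL-3.

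**Figure D3:**
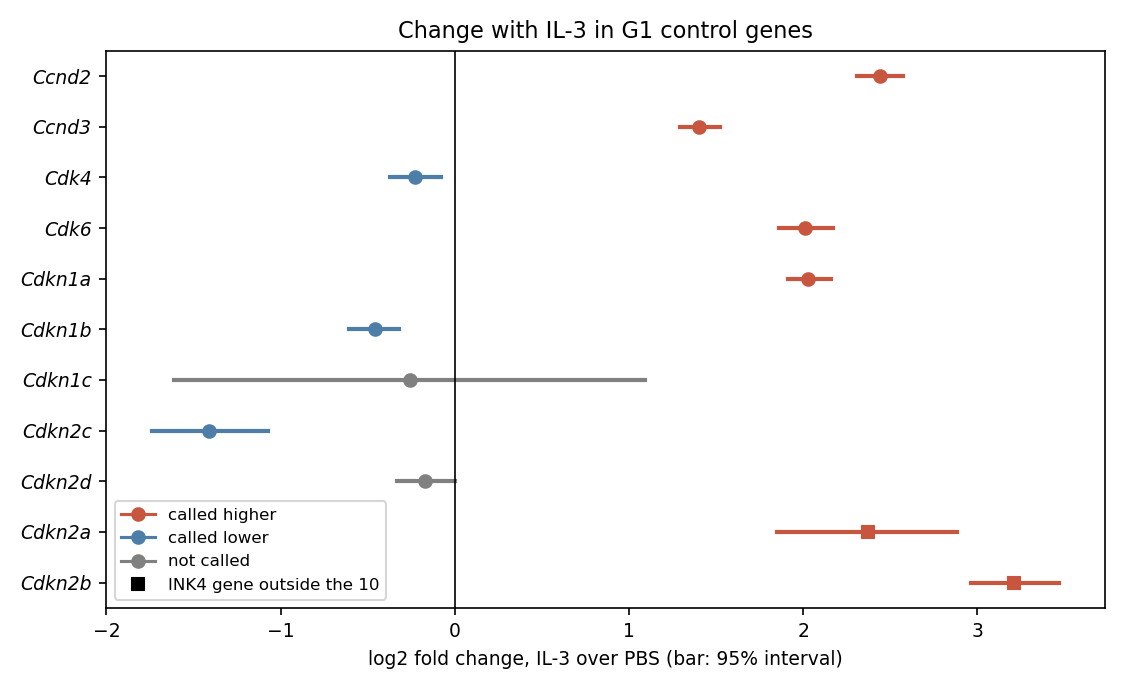
Log2 fold change of IL-3 over PBS with its 95% interval for the 9 tested members (circles) and for 2 further INK4 genes (squares), with genes called higher in red, called lower in blue and not called in grey. Ccnd2, Ccnd3, Cdk6, Cdkn1a, Cdkn2a and Cdkn2b lie to the right of 0, and the interval of Cdkn1c reaches from -1.61 to 1.09.

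To set levels of different genes side by side, they were divided by transcript length. This assumes that reads cover the transcripts evenly, which was not checked. In CPM per kilobase of the longest coding transcript, the order in PBS was Ccnd3 at 95.2 ± 5.24, Cdkn1a at 71.5 ± 4.53, Cdkn2d at 49.2 ± 5.05, Cdk4 at 40.4 ± 2.41, Cdkn1b at 33.7 ± 1.76, Ccnd2 at 12.2 ± 0.515, Cdkn2c at 9.73 ± 0.891, Cdk6 at 3.86 ± 0.0535, Cdkn1c at 2.03 ± 1 and Ccnd1 at 0.195 ± 0.156. No neighbours in this order had overlapping libraries. In IL-3 Cdkn1a came first at 293 ± 7.34, followed by Ccnd3 at 252 ± 5.23 and Ccnd2 at 66.0 ± 4.03. After them came Cdkn2d, Cdk4, Cdkn1b and Cdk6, and of all neighbours in IL-3 only Cdkn2c and Cdkn1c overlapped. Summed per role, the D cyclins went from 108 ± 5.49 to 318 ± 9.28 CPM per kilobase and the CIP/KIP genes from 107 ± 3.23 to 319 ± 6.46. Cdk4 and Cdk6 together were at 44.3 ± 2.46 and 50.1 ± 2.45, and Cdkn2c and Cdkn2d together at 58.9 ± 5.26 and 47.5 ± 1.51. The order and the sums depend on the transcript length. With median lengths, an alternative chosen after seeing the data, Ccnd3 came first in IL-3 at 597 ± 12.4, before Ccnd2 at 420 ± 25.6 and Cdkn1a at 395 ± 9.9. On that scale the D cyclins went from 304 ± 14.3 to 1018 ± 38.1 CPM per kilobase and the CIP/KIP genes from 163 ± 4.19 to 444 ± 9.14. The sum of Cdk4 and Cdk6 then went from 142 ± 5.52 to 324 ± 25.2, or 2.29 times the PBS level in place of 1.13 times.

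The genes with the pattern most like that of Ccnd2 over the 6 libraries were Ccl9, Adam19 and Fndc3a, with Pearson's r of log2 CPM of 0.9999, 0.9998 and 0.9997. They rose by 2.07, 3.75 and 1.89 on the log2 scale. For Cdkn2c they were Fbxo30, Ndc80 and Tpp1, at 0.9977, 0.9963 and 0.9959, with log2 fold changes of -0.34, -1.39 and -0.40. The call of Fbxo30 was lost without IL-3 replicate 3 (adjusted p 0.056, range up to 1). Ndc80 encodes a kinetochore protein of dividing cells. Genes entered this search with a mean of at least 20 CPM in their higher group. Adam19, at 3.09 ± 0.136 CPM in PBS, and Ndc80, at 8.57 ± 2.23 CPM in IL-3, passed only through that group. With 2 groups of 3 libraries such correlations reflect mainly the difference between the groups and are given as a description.

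Downstream of the D cyclins act cyclin E, cyclin A and CDK2. Of the 5 tested genes of this list 2 were called, both lower, and the share called was near the 38.2% of all genes. Ccna2, the cyclin of S and G2 phase, went from 72.5 ± 6.57 to 37.9 ± 4.35 CPM (log2 fold change -0.94, edgeR adjusted p 6.87e-07). Ccne1, which encodes a cyclin of the G1/S step, went from 3.99 ± 1.58 to 1.94 ± 0.277 CPM (log2 fold change -1.03, adjusted p 0.0119), but without PBS replicate 2 the adjusted p was 0.0897, within a range that ended at 0.193 over all alternatives. Cdk2 was at 32.0 ± 2.42 and 32.6 ± 0.164 CPM, with a 95% interval of the log2 fold change of -0.16 to 0.21. The median of this list was -0.94, beside 0.00 over all genes tested.

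Of 13 pocket protein, E2F and DP genes, which carry the signal from CDK4 and CDK6 to transcription, 7 fell and 1 rose, beside 20.2% lower and 18% higher over all genes, with a median log2 fold change of -0.59. E2f8, a repressor among the E2F factors and itself a target of them, was at 34.0, 33.9 and 33.5 CPM in PBS and at 8.69, 11 and 11.2 CPM in IL-3, a fall by 1.70 on the log2 scale. Tfdp2, which encodes a partner of E2F proteins, had a log2 fold change of -1.26, and Rbl2, which encodes the pocket protein p130 of resting cells, one of -0.61. The rise was that of E2f4 at 0.34, which was at 0.18 and not called under library totals (adjusted p 0.109, range up to 1 over all alternatives). Of 21 E2F target genes of the G1/S step, 12 fell and 1 rose, with a median of -0.44. Rrm2, Pcna and Mcm7, which serve nucleotide supply and DNA replication, had log2 fold changes of -1.22, -0.40 and -0.99, and the gene that rose was Tyms, at 0.40, whose call was lost under library totals (adjusted p 0.0555, range up to 1).

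All 14 mitotic and proliferation genes fell, with a median of -1.06, whereas 20.2% of all genes tested fell. Mki67, the standard marker of dividing cells, was at 225, 248 and 250 CPM in PBS and at 135, 111 and 106 CPM in IL-3. Ube2c and Birc5 both had a log2 fold change of -1.18. Ccnd2 and Ccnd3 and the genes of division thus moved in opposite directions after 6 h. In bulk RNA a smaller share of dividing cells and less of these transcripts per cell cannot be told apart.

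**Figure D4:**
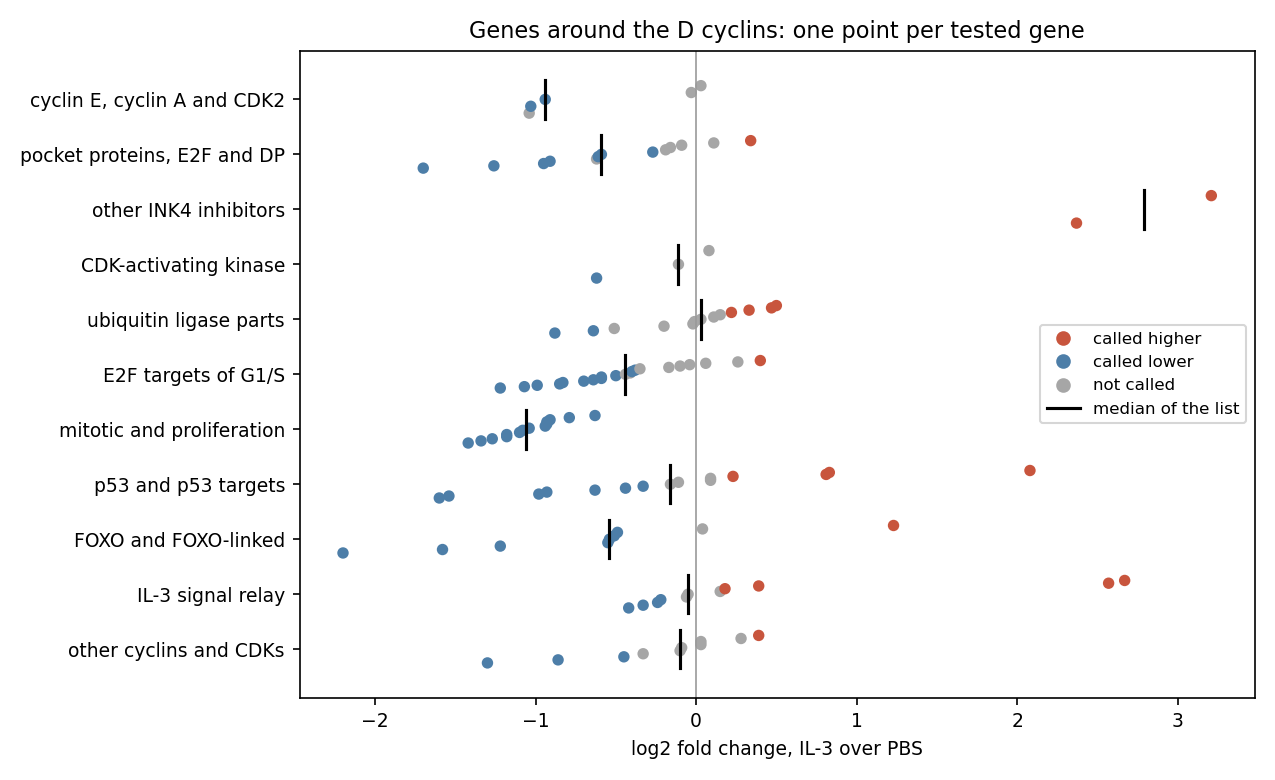
Log2 fold change of IL-3 over PBS for each tested gene of 11 lists around the D cyclins, with genes called higher in red, called lower in blue, not called in grey, and the median of each list as a black line. All 14 mitotic genes lie below 0, both further INK4 genes lie above 2, and p53 targets spread to both sides.

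Lists of p53 and FOXO genes were read in the same way, and the part of either factor in the changes of Cdkn1a and Cdkn1b was not tested. Of 15 tested genes of the p53 list, 4 rose and 7 fell, beside 18% and 20.2% of all genes, with a median log2 fold change of -0.16. Sesn2, a stress-response gene, rose from 26.7 ± 4.74 to 113 ± 4.14 CPM (log2 fold change 2.08), and Pmaip1 and Aen rose by 0.81 and 0.83. Gadd45a, Trp53inp1 and Phlda3 had log2 fold changes of -1.54, -0.93 and -1.60. Of 9 tested FOXO factors and FOXO-linked genes, 7 fell and 1 rose, beside the same shares of all genes, with a median of -0.54. Il7r, Pik3ip1 and Bcl6 had values of -1.22, -2.20 and -1.58, and Klf2 rose by 1.23.

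Of 13 tested parts and partners of the ubiquitin ligases that degrade D cyclins, p21 and p27, 4 rose and 2 fell, with a median of 0.03. The share called was near that of all genes, which was 38.2%. Fbxw7, Cul1 and Fbxo4 rose by 0.50, 0.33 and 0.47, and Cks1b, a cofactor for the degradation of p27, fell by 0.88 on the log2 scale. Fbxo31 was called at -0.64, but without PBS replicate 1 it was at -0.30 (adjusted p 0.1, range up to 0.855). The calls of Cul1 (adjusted p 0.0521) and Fbxo4 (adjusted p 0.102) were lost under library totals, with ranges up to 1, and Fbxo4 also lost its call without PBS replicate 1 or 2 (adjusted p 0.0599 and 0.0631). Among the kinase that activates CDKs, Mnat1 was the one called of 3 genes, at -0.62 (adjusted p 0.0311), and was not called without PBS replicate 1, PBS replicate 3 or IL-3 replicate 3 (adjusted p 0.113, 0.0949 and 0.146) nor in the DESeq2 Wald test (adjusted p 0.0854), with a range up to 0.934. The median of these 3 genes was -0.11.

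Genes that relay IL-3 signals to the cell cycle went both ways, with 4 of 11 higher, 4 lower and a median of -0.05, beside 18% higher and 20.2% lower over all genes. Myc, a driver of growth, was at 3.35, 3.51 and 3.96 CPM in PBS and at 23.5, 26.8 and 18.7 CPM in IL-3 (log2 fold change 2.67, edgeR adjusted p 3.50e-09). Pik3cd, which encodes a catalytic subunit of PI3 kinase, rose by 2.57 and Map2k1 by 0.39. Mapk3 and Mnt were at -0.33 and -0.42. Stat5b, which encodes a main factor of IL-3 signalling, was at -0.24, a call that was lost without PBS replicate 2, PBS replicate 3 or IL-3 replicate 1 (adjusted p 0.0548, 0.0623 and 0.0717, range up to 1). Of 10 tested further cyclins and CDKs, 1 rose and 3 fell, near the share of 38.2% called over all genes, with a median of -0.10. Cdkn3, which encodes a phosphatase of CDKs, and Ccnf, the cyclin of an SCF ubiquitin ligase, were at -1.30 and -0.86. Ccnc rose by 0.39, a call lost under library totals (adjusted p 0.0849), and Cables1 was at -0.45 and lost its call without PBS replicate 2 or 3 or IL-3 replicate 1 or 2 (adjusted p 0.0548 to 0.231) and in the DESeq2 Wald test (adjusted p 0.288, with a range up to 1 over all alternatives).

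Markers of other cells moved with IL-3 as well, and their part in the changes above was not tested. Of all genes tested 38.2% were called, 18% higher and 20.2% lower. Called were 8 of 9 basophil markers, 8 of 9 monocyte and macrophage markers and 4 of 6 mast cell markers. Of the tested eosinophil, neutrophil and erythroid markers, 4 of 5, 4 of 7 and 2 of 4 were called. The NK and T cell list, with 1 of 3, lay near the share of all genes. All lists are short, with 3 to 9 tested genes. Of 9 monocyte and macrophage markers 6 fell and 2 rose, and their summed level was 11701 to 12628 CPM in PBS against 6134 to 6760 CPM in IL-3, led by Lyz2. Of 6 mast cell markers 4 rose, with sums of 840 to 945 and 1437 to 1571 CPM. Of 9 basophil markers 6 rose and 2 fell, with sums of 10503 to 11713 and 15477 to 15656 CPM. Neutrophil markers had sums of 122 to 158 and 194 to 257 CPM, with 3 of 7 tested genes higher and 1 lower, and eosinophil markers 155 to 173 and 95 to 136 CPM, with 1 of 5 higher and 3 lower. Erythroid markers had sums of 100 to 219 and 54.6 to 101 CPM, with 2 of 4 lower and Alas2 without a count in any library, and the NK and T cell list was at 7.36 to 12.5 and 31.0 to 34.4 CPM, with 1 of 3 higher. That gene, Nkg7, carried the sum, at 6.29 ± 1.11 and 29.3 ± 1.73 CPM, while the means of Ncr1, Klrb1c, Cd3e, Cd3g and Cd247 were at most 1.45 CPM in either group.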

How the data were processed

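Poly(A) RNA of BMBAs given PBS or IL-3 was sequenced in 6 libraries, 3 per group. Per the methods of the study, the authors amplified the whole transcriptome, trimmed reads with Cutadapt (version 3.4 in the submitters' processing notes), mapped them with Bowtie2 to reference RNA and deposited raw counts per gene symbol. The methods name GRCm38 and the processing notes GRCm39, and neither states the use of strand or of molecular identifiers, so PCR copies may be counted as separate reads. Coordinates and lengths are from GENCODE M21 (GRCm38), which held 96.12% of the symbols.

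Counts were analysed in R 4.3.3 with edgeR 4.0.16 (filterByExpr, TMM, quasi-likelihood F test with group as the only term, two-sided, Benjamini-Hochberg over all genes tested, called at an adjusted p below 0.05), since the study used TCC, which builds on edgeR. Alternatives used DESeq2 1.42.0 (size factors and Wald test), limma 3.58.1 (voom), library totals, iterated TMM, other filters, glmTreat against a fold of 1.5, a replicate block, and leaving out each library. The SE and the interval come from the F value. In simulated counts for IL-3 against PBS over 16338 genes, 81.2% of 192 tested genes changed 2-fold were called and 0.0867% of unchanged genes. Only 200 genes were changed there, as many up as down, whereas 38.2% of the genes tested were called in the data. The simulated rates therefore need not hold for the data.

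Members, lists and tests were chosen with earlier results of these data known. Named were all members, up to 3 called genes per list and direction, by adjusted p, Cish, and for the largest rise and fall the 3 genes of at least 20 CPM with the most like pattern. Other named genes are cell type markers, genes that overlap a member, and Cdk2, named after its values were seen. Sequence sharing is the percentage of 50-mers found in transcripts of another symbol in either orientation. Same-numbered libraries did not deviate together (r of -0.0087, -0.016 and -0.022), and no pair of libraries looked like a duplicate (chi-square per degree of freedom at least 2.75).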

Additional observations from a re-analysis of the deposited data

How the results depend on the processing

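The 4 members called higher were called under all alternatives run, and the number called lower was 3, between 2 and 4 with 1 library left out and 1 in the test against a fold of 1.5. Ccnd2 ranged from 2.28 to 2.48, Ccnd3 from 1.24 to 1.44, Cdk6 from 1.85 to 2.08, Cdkn1a from 1.87 to 2.06 and Cdkn2c from -1.60 to -1.22, with the extremes set by library totals and by left-out libraries. Cdkn1b stayed between -0.63 and -0.41 and lost its call only in the test against a fold of 1.5. Cdk4 lost its call there and without PBS replicate 3 or IL-3 replicate 3. Cdkn1c changed sign without PBS replicate 1 (0.033), IL-3 replicate 1 (0.12) or IL-3 replicate 3 (0.29), and was called lower without IL-3 replicate 2 (-2.36).

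Of the 116 tested genes in the lists around them, 18 were higher and 59 lower, beside 18% and 20.2% of all genes. Library totals, which shift the median log2 fold change to -0.17, gave 10 higher, and testing against a fold of 1.5 gave 7 higher and 25 lower by its construction. With 1 library left out, 16 to 18 were higher and 51 to 57 lower. Over all genes, library totals gave 1698 higher and 5030 lower (25.2% of calls higher, against 47.1%), testing against a fold of 1.5 gave 709 and 883, and fits without 1 library gave 2482 to 2787 and 2883 to 3108. With the median transcript length, the D cyclin shares of Ccnd2 and Ccnd3 were 25.5% and 74.4% in PBS and 41.3% and 58.7% in IL-3. With 1 library left out they were 11% to 11.5% and 88.2% to 88.9% in PBS and 20.5% to 21.1% and 78.8% to 79.5% in IL-3. With the replicate number as a block, which the check of pairing did not call for, 4 members were higher, 3 lower, and 2842 and 3247 of all genes, and no call changed among the tested members, Cish, the genes of like pattern and the genes named by rule from the lists. The block was not read for cell type markers, genes that overlap a member, Cdk2 or Ccnd1. For the remaining changes the cause was not tested. Ccnd1 had 1 to 15 counts per library and Cdkn1c 6 to 97, and the values of both moved with single libraries.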
